A study of Homo sapiens with 24 samples.

Results

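The domains described here are stretches of the trimethylated histone mark H4K20me3 that lie far from any protein-coding gene. They were chosen as the broad H4K20me3 peaks under 50 kb wide whose midpoint lay 300 kb or more from every coding gene span of RefSeq on hg38, on chromosomes 1 to 22 without 14 and more than 5 Mb from a centromere, with overlapping peaks of all libraries merged. This gave 4846 gene desert regions, of 32144 regions when all peaks of every chromosome were merged. The rule used position and width only, not the response to a treatment. The peaks came from 14 CUT&RUN libraries of the human line HN-SCC-151, which was derived from a papillomavirus-negative squamous carcinoma of the head and neck and is labelled wild type, with 500000 cells in a reaction. CUT&RUN releases DNA around an antibody-bound mark with a tethered nuclease and sequences it. Of the libraries, 3 came from cells given A-196 at 2.5 µM for 6 days and 3 from cells given the vehicle DMSO for 6 days, while 4 came from cells given siRNAs against SUV420H1 (siSUV420H1) for 6 days and 4 from cells given control siRNAs (siNC) for 6 days.

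H4K20me3 is a mark of repressed chromatin, best known from heterochromatin around centromeres, telomeres and repeats. SUV420H1 and SUV420H2, also called KMT5B and KMT5C, are the methyltransferases that methylate lysine 20 of histone H4 beyond its first methyl group, and A-196 is a small-molecule inhibitor of both, whereas the siRNAs were directed at SUV420H1 alone. Gene deserts are long intergenic stretches, often AT-rich, that neighbour genes of development, neuronal adhesion and cell signalling; some carry long non-coding RNAs and distant enhancers. All groups are of 1 cell line, and a loss of the mark in some cells cannot be told apart from less of it in every cell. The design text gives 3 dishes a condition, so at least some of the 4 libraries of each siRNA group may share a dish, and p-values then measure in part technical spread.

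The 4846 regions held 19705 peaks, 12.7% of the 154562 peaks in the 14 lists. They spanned 55.1 Mb, with a median width of 8 kb and a range of 5 to 111 kb, because 55 of them grew to 50 kb or more once peaks of several libraries were merged. The space that met the rule was 357 Mb, 14.7% of the 2430 Mb of chromosome considered. The median distance from a region to the nearest coding gene was 582 kb and the greatest 2382 kb, and 824 regions lay 1 Mb or more away. The regions fell into 385 deserts, each the stretch between 2 neighbouring coding genes, and the 151 deserts with 10 or more regions held 82.4% of all regions. A desert region is called marked in a library when a peak of that library, of any width, overlaps it. Covered length is the part of the regions under peaks of any width, and it stops at the ends of a region. Median peak width instead uses only the peaks that meet the rule.

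Non-coding genes took up a like share of the marked regions and of the deserts as a whole. Spans of non-coding genes covered 25.3% of the bases in the regions and 24.6% of all desert space. A long non-coding RNA (lncRNA) gene overlapped 28.2% of the 4846 regions, a pseudogene 3.26%, and 3354 regions overlapped no annotated gene. Of the 201 regions marked in all 14 libraries 44.8% overlapped an lncRNA gene, but these were also wider, with a median of 36 kb.

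The promoters of 149 lncRNA genes, taken as the window of 250 bases before to 50 after the RefSeq start, lay wholly inside desert regions. Their median GC content was 40% and their median number of CpG dinucleotides 2, against 39.7% and 2 in the 749 desert lncRNA windows outside the regions and 58.0% and 13 over 25346 windows of all genes. The letters TATAAA, searched on both strands, were present in 35.6% of the 149 windows, 31.6% of the 749 and 12.3% of all. The promoters under the mark thus had the low CpG content of desert promoters in general. Several windows are shown with capitals at each CpG because they span the range of responses described further on, each on GRCh38.p14 and written on the strand of its gene. The window of LINC02015 at chr3:177816615-177816914 (+) lay under a peak in all 14 libraries. That of LOC124909496 at chr3:147939745-147940044 (+) lay under one in no treated library, against 3 of 3 DMSO and 4 of 4 siNC libraries. That of LOC105371358 at chr16:80109526-80109825 (-) was covered in the 4 siNC libraries only. That of LOC105370307 at chr13:89039245-89039544 (+) was covered in 4 of 4 siSUV420H1 libraries, 1 of 3 A-196 libraries and no control library.
LINC02015: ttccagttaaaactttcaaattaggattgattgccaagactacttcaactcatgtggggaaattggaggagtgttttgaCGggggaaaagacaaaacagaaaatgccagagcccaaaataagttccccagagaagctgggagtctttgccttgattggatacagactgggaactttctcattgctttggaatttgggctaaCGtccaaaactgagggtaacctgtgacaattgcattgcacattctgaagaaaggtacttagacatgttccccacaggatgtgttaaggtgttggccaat
LOC124909496: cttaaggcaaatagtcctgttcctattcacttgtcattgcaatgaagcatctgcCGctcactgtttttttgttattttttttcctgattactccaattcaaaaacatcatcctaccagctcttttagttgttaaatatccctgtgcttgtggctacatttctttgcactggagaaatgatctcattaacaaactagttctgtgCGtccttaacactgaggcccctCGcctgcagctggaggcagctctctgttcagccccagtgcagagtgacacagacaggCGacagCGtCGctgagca
LOC105371358: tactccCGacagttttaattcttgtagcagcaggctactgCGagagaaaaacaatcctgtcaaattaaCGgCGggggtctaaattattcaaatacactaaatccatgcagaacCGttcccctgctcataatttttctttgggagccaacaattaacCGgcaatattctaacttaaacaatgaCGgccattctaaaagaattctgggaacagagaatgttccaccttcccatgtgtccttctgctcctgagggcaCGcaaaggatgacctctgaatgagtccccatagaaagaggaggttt
LOC105370307: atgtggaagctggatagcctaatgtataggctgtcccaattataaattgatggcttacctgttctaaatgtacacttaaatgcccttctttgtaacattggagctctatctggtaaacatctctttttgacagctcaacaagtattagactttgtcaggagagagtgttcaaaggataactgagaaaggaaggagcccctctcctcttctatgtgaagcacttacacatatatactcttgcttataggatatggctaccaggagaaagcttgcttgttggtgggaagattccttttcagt
The windows held 2, 6, 8 and 0 CpG in this order, and TATAAA was found in that of LOC105370307 alone.

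Mature microRNAs of RefSeq lay in 5 regions, and 2 of these are shown with the seed, bases 2 to 8, in capitals because a peak covered their loci in whole groups. The locus of hsa-miR-4477b at chr9:63819623-63819644 (+) lay under a peak in all 14 libraries, and that of hsa-miR-1263 at chr3:164171523-164171544 (-) in the 4 siSUV420H1 libraries and no other.
hsa-miR-4477b: aUUAAGGAcauuugugauugau
hsa-miR-1263: aUGGUACCcuggcauacugagu
The region around the hsa-miR-1263 locus, chr3:164161001-164187000, lies between OTOL1 and SI. Its covered length was 10, 22, 20 and 20 kb in siSUV420H1 libraries, against 0, 5, 13 and 0 kb in siNC libraries. It was 0, 6 and 0 kb in A-196 libraries and 0 kb in each DMSO library, so 3 siSUV420H1 libraries stood above all others and the fourth did not.

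Libraries differed in ways the groups do not account for, and these touch the desert values. On chromosomes 13 and 21 the covered length of desert regions was 2.62, 5.44, 2.19 and 4.5 Mb in siSUV420H1 libraries 1 to 4. It was 3.35, 3.79, 4.41 and 3.39 Mb in siNC libraries. Libraries 2 and 4 of siSUV420H1 thus stood above every siNC library there, while libraries 1 and 3 stood below every one. On the other chromosomes the same libraries held 11.1, 13.6, 10.2 and 12.7 Mb, against 19.4, 20.7, 22 and 19.6 Mb in siNC libraries, and the groups did not overlap. Whether the 2 libraries differ in cells, handling or sequencing was not tested, and siRNA results that rest on them are given without them too, or library by library. In the A-196 group the 3 peak lists shared few marked desert regions. The mean Jaccard index, the shared fraction of the regions marked in either of 2 libraries, was 0.245 within A-196 and 0.728 within DMSO. It was 0.542 within siSUV420H1 and 0.727 within siNC. Regions marked in a single library numbered 246, 589 and 239 in A-196 libraries, against 37, 51 and 21 in DMSO libraries. Their number in siSUV420H1 libraries was 80, 283, 34 and 197, against 48, 57, 111 and 32 in siNC libraries.

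**Figure D1:**
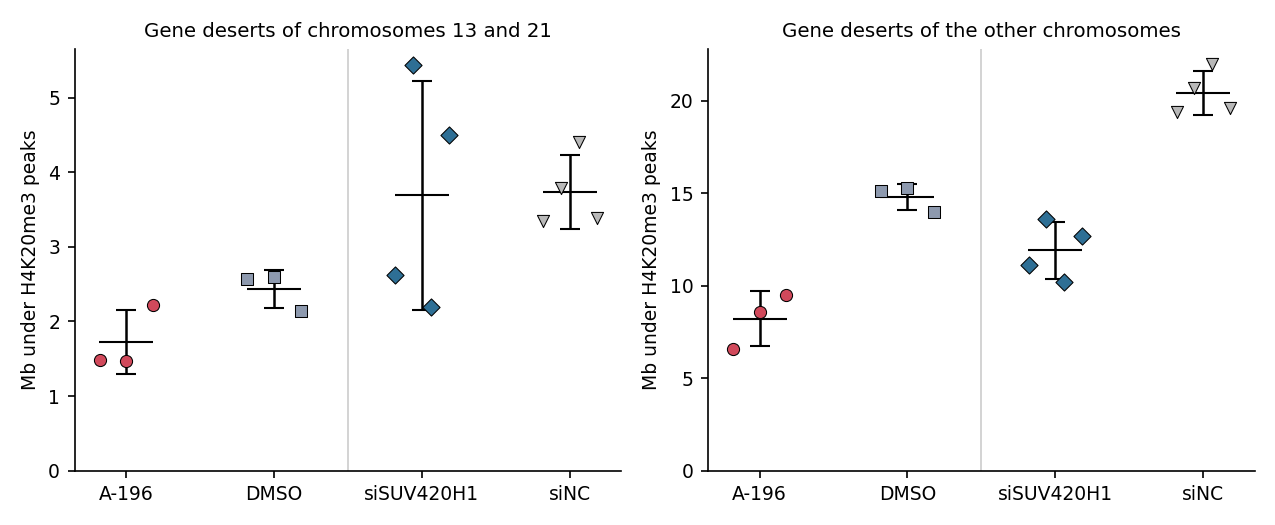
Covered length of gene desert regions in Mb on chromosomes 13 and 21 (left panel) and on the other chromosomes (right panel), 1 point per library with the group mean and SD. On chromosomes 13 and 21 the siSUV420H1 libraries spread from 2.19 to 5.44 Mb around the siNC range of 3.35 to 4.41 Mb, whereas on the other chromosomes all siSUV420H1 libraries lie below all siNC libraries.

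The first comparison asks how much of the mark remained in the deserts after A-196. Covered length was lower with narrower peaks, while the numbers of marked regions overlapped between the groups. Peaks covered 8.08, 10.0 and 11.7 Mb of the desert regions in A-196 libraries, against 17.7, 17.9 and 16.1 Mb in DMSO libraries. The groups did not overlap. The difference was -0.81 on the log2 scale, a covered length 43.0% lower (p = 0.1, exact two-sided permutation test, 0.2 after Benjamini-Hochberg adjustment over 4 measures). The smallest p that 3 against 3 libraries allow is 0.1, so no measure of this arm could pass 0.05. The median desert peak was 6, 6 and 7 kb wide in A-196 libraries and 9 kb wide in each DMSO library, a mean difference of -2.67 kb (exact permutation p = 0.1, adjusted 0.2). Regions marked numbered 879, 1291 and 1124 in A-196 libraries, against 1122, 1174 and 1040 in DMSO libraries. These groups overlapped, with a difference of -14 regions between means (exact permutation p = 1). That difference moved with the setting: it was 144 where peaks within 10 kb were merged and 95.5 without A-196 replicate 1, but -336 over regions marked in 2 or more libraries and -199 with an equal number of widest peaks, where the groups did not overlap (exact permutation p = 0.1, adjusted 0.133 for both of these).

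With siSUV420H1 both the number of marked regions and the covered length were lower. Regions marked numbered 1167, 1629, 1035 and 1497 in siSUV420H1 libraries, against 1708, 1820, 2013 and 1698 in siNC libraries. Every siSUV420H1 library lay below every siNC library, and the means differed by -478 regions or -26.4% (p = 0.0286, exact two-sided permutation test and the smallest it allows, 0.0571 after adjustment over 4 measures). Covered length was 13.7, 19, 12.4 and 17.2 Mb in siSUV420H1 libraries, against 22.8, 24.4, 26.5 and 23 Mb in siNC libraries. The groups again did not overlap, and the difference was -0.66 on the log2 scale or -36.5% (exact permutation p = 0.0286, adjusted 0.0571). The median peak width was 9, 8, 9 and 8 kb in siSUV420H1 libraries and 9 kb in each siNC library (exact permutation p = 0.429). Where each library was limited to an equal number of its widest peaks, the difference in covered length was -0.42 on the log2 scale and that in median width -2 kb (exact permutation p = 0.0286, adjusted 0.0571 for the width), but that in marked regions turned to 30.5. Without siSUV420H1 libraries 2 and 4 the differences were -709 regions and -0.89 in log2 covered length (exact permutation p = 0.0667 and adjusted p = 0.133 for both).

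**Figure D2:**
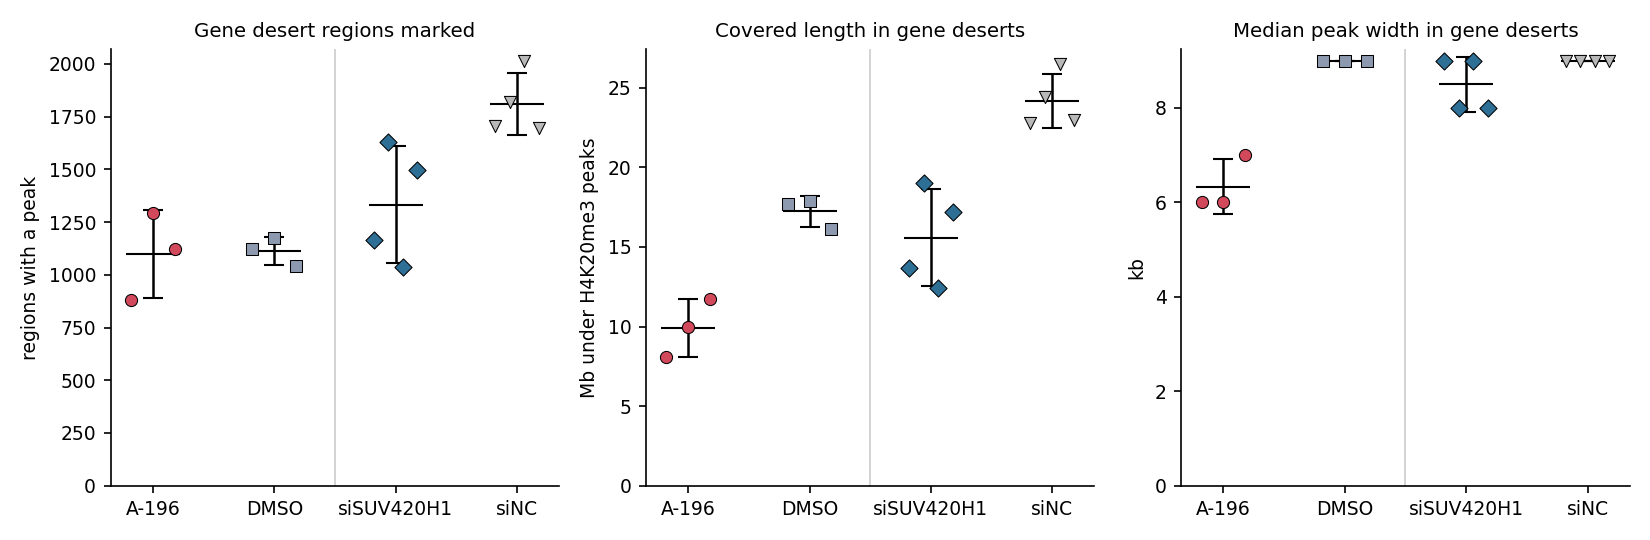
Regions marked (left), covered length in Mb (middle) and median peak width in kb (right) of the gene desert regions, 1 point per library with the group mean and SD. Covered length of every A-196 and every siSUV420H1 library lies below its control libraries, while the number of marked regions overlaps between A-196 and DMSO.

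The deserts were next set beside the 22691 other regions, those made in the same way from peaks nearer than 300 kb to a coding gene. The log2 ratio of desert to other covered length was -2.58, -2.72 and -2.47 in A-196 libraries, against -2.56, -2.47 and -2.62 in DMSO libraries. It was -2.38, -1.82, -2.49 and -1.96 in siSUV420H1 libraries, against -2.43, -2.38, -2.25 and -2.42 in siNC libraries. The groups overlapped in both arms, with differences of -0.04 for A-196 (exact permutation p = 0.7, adjusted 0.933) and 0.21 for siSUV420H1 (exact permutation p = 0.371, adjusted 0.429), and the siSUV420H1 value was -0.06 without siSUV420H1 libraries 2 and 4. A difference between desert and other chromatin in the covered length that remained was not detected with these numbers of libraries. Of the desert space, 2.84 ± 0.506% was under peaks with A-196 and 5.07 ± 0.284% with DMSO (SD, n = 3 each), and 4.39 ± 0.856% with siSUV420H1 and 6.91 ± 0.477% with siNC (SD, n = 4 each). The effects of the 2 treatments were compared by an exact permutation test that moved libraries within each arm: the siSUV420H1 effect minus the A-196 effect was -0.43 in log2 regions marked (p = 0.131), 0.15 in log2 covered length (p = 0.763) and 0.25 in the ratio to other regions (p = 0.224), with adjusted p of 0.336, 0.763 and 0.336 over 3 tests. Without A-196 replicate 1 the first of these was -0.58 (exact permutation test, adjusted p = 0.0257; adjusted p up to 0.559 without another library), and it turned to 0.33 where libraries were limited to an equal number of widest peaks.

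Within the deserts the treated libraries held less on average at each distance from genes. Between 300 and 500 kb from a coding gene the covered length was 4.63 ± 0.864 Mb with A-196 and 8.7 ± 0.405 Mb with DMSO (SD, n = 3 each), which is 47.3% lower. In the same class it was 5.73 ± 0.566 Mb with siSUV420H1 and 10.8 ± 0.513 Mb with siNC (SD, n = 4 each), 47.0% lower. At 1 Mb or more it was 1.16 ± 0.262 Mb with A-196 and 1.94 ± 0.16 Mb with DMSO, 41.1% lower, and 2.79 ± 0.875 Mb with siSUV420H1 and 3.46 ± 0.419 Mb with siNC, 22.1% lower. In that farthest class the siSUV420H1 libraries held 2.21, 3.71, 1.89 and 3.33 Mb, against 3.16, 3.5, 4.04 and 3.14 Mb in siNC libraries, and only libraries 1 and 3 lay below every siNC library. Without libraries 2 and 4 the siSUV420H1 value was 40.7% lower at 1 Mb or more, 42.4% lower between 500 kb and 1 Mb and 50.8% lower between 300 and 500 kb, and without chromosomes 13 and 21 it was 34.3%, 36.4% and 49.2% lower. Without these chromosomes the A-196 value was 56.1% lower at 1 Mb or more, 38.9% lower between 500 kb and 1 Mb and 47.5% lower between 300 and 500 kb. Differences between distance classes were not tested. At the limit of the rule nothing changed abruptly: regions from peaks 250 to 300 kb from a gene, just outside, were 51.8% lower with A-196 than with DMSO and 47.8% lower with siSUV420H1 than with siNC, and those at 300 to 350 kb, just inside, were 48.2% and 44.6% lower.

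**Figure D3:**
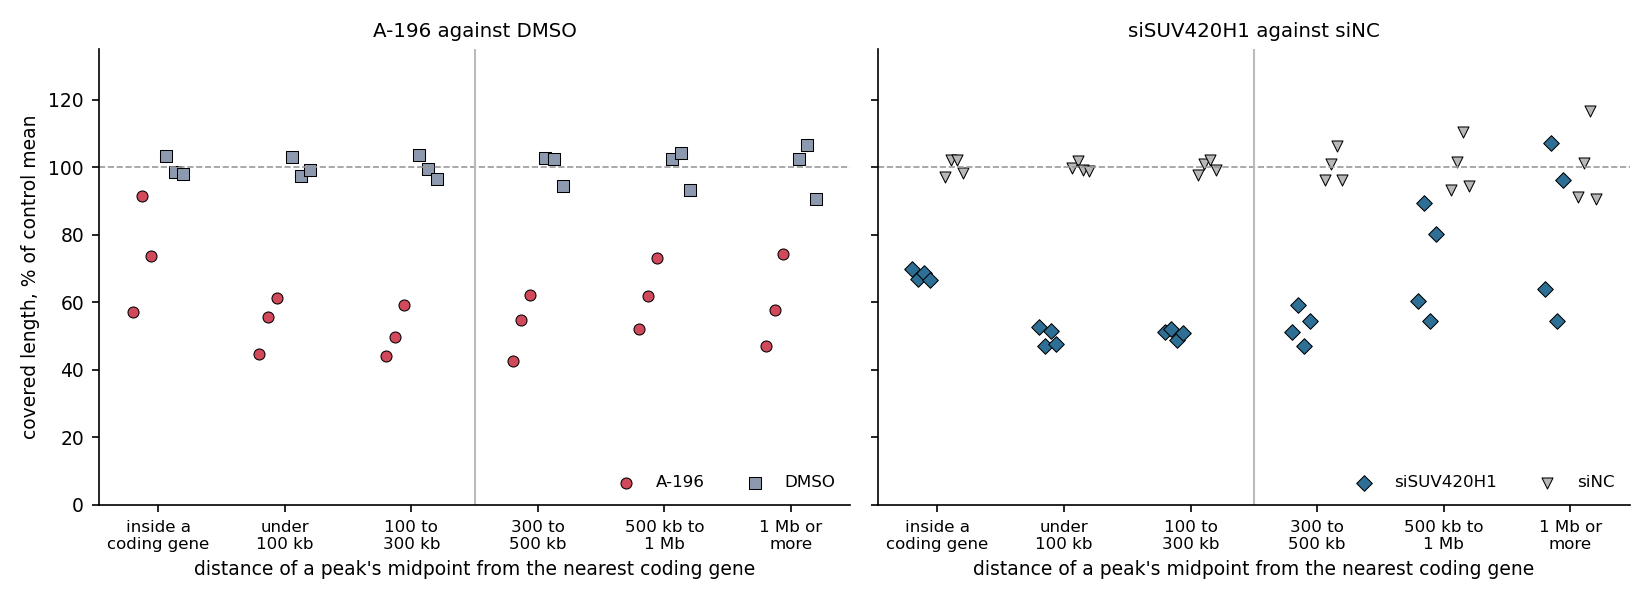
Covered length in percent of the control mean by distance of a peak's midpoint from the nearest coding gene, 1 point per library, for A-196 beside DMSO (left panel) and siSUV420H1 beside siNC (right panel); the vertical line is the 300 kb limit of gene desert regions. The siSUV420H1 libraries lie close together up to 300 kb and spread apart beyond 500 kb, where 2 of 4 reach the range of siNC at 1 Mb or more.

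Single regions were called lost in an arm when all of its controls and none of its treated libraries marked them, gained in the opposite case, and kept when all libraries of the arm marked them; these calls have no test. With A-196, 237 of the 866 regions that all DMSO libraries marked were lost, 27.4%, where the share over all regions of the series considered was 26%. Another 259 were kept, 29.9% beside 32.3% over all regions. Gains numbered 32, 1.1% of the 2912 desert regions marked in the arm beside 0.847% over all regions. With siSUV420H1, 486 of 1356 regions that all siNC libraries marked were lost, 35.8% beside 32.9%, and 601 were kept, 44.3% beside 48.3%. Gains there numbered 46, 1.36% of 3378 beside 1.15%. These shares, over all libraries of an arm, were near those over all regions. Leaving out a library can only raise the count of gains, by the definition of the call. The counts were 108, 77 and 75 without A-196 replicate 1, 2 and 3, and 67, 54, 83 and 54 without siSUV420H1 replicate 1, 2, 3 and 4. Without siSUV420H1 libraries 2 and 4 together 574 regions were lost, 42.3%, 646 were kept, 47.6%, and 67 were gained; fewer treated libraries make each of these calls easier to meet. Covered length was lower in every treated than in every control library in 662 regions with A-196, 22.7% beside 22.5%, and in 996 regions with siSUV420H1, 29.5% beside 37.5%; it was higher in 38, 1.3% beside 1.02%, and in 94, 2.78% beside 3.73%.

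The lost share was higher for narrow than for wide domains. Among regions with a mean of under 10 kb in DMSO libraries 46.7% were lost with A-196, against 27.3% of those of 10 to 20 kb and 5.88% of those of 20 kb or more. With siSUV420H1 the shares were 57.7%, 30.0% and 8.97% in the same order of siNC width. The other regions showed a like order, 45.6%, 23.4% and 5.34% with A-196 and 52.7%, 22.4% and 6.58% with siSUV420H1. A narrow peak is closer to the calling limit of 5 kb. A wide region is also easier for any peak to overlap, and so harder to call lost. What part these have in the lost shares was not tested.

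**Figure D4:**
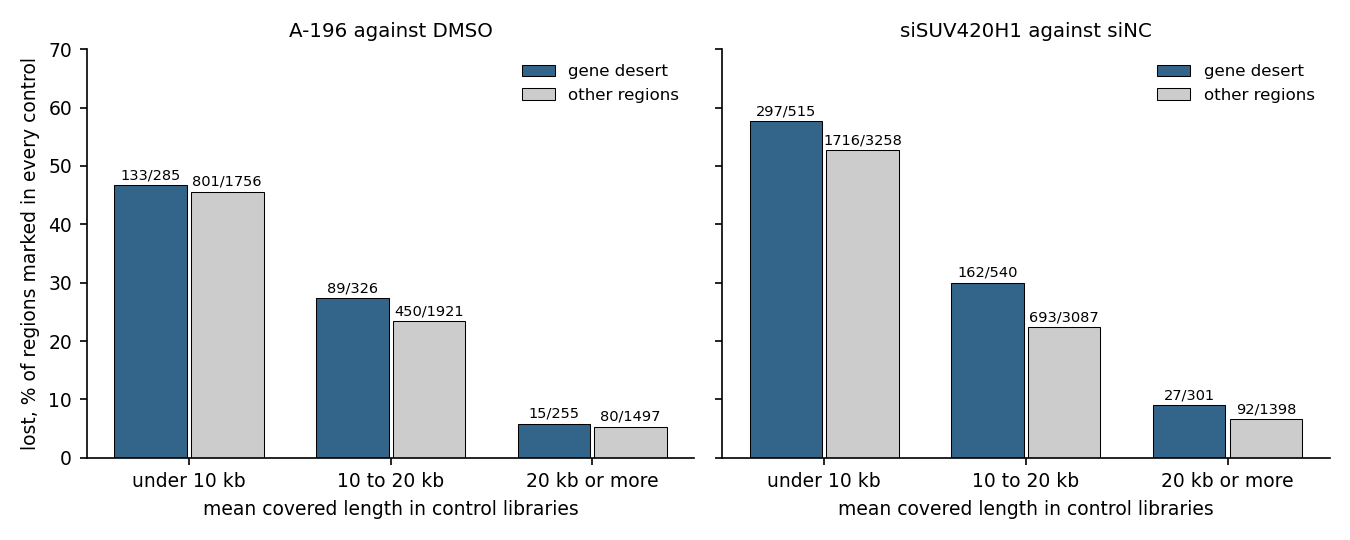
Share of regions lost, in percent of the regions marked in every control library, by mean covered length in the control libraries, for gene desert regions and the other regions; the numbers over the bars are regions lost and regions marked in every control. In both arms the share is highest under 10 kb, 46.7% with A-196 and 57.7% with siSUV420H1 in the deserts, and lowest at 20 kb or more.

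Of the 709 desert regions marked in all 7 control libraries, 177 or 25% were lost with A-196 and 159 or 22.4% with siSUV420H1. Lost with both were 74, which is 41.8% of the A-196 losses and 46.5% of the siSUV420H1 losses, beside 40.9% and 45% over all regions considered. A further 65 regions lost with A-196 were kept with siSUV420H1, and 23 lost with siSUV420H1 were kept with A-196. No region was gained in both arms, but only 32 were gained with A-196 and 46 with siSUV420H1. The same counts over all regions are not given, so these cannot be read as particular to deserts. The arms share no control libraries. The region with the longest covered length among those lost in both arms was chr4:135197001-135236000, between PABPC4L and PCDH18, a protocadherin gene, 1015 kb from the nearest coding gene and with no annotated gene inside. It was covered over 0 kb in all A-196 and siSUV420H1 libraries, against 35, 37 and 36 kb in DMSO libraries and 36, 35, 37 and 35 kb in siNC libraries. Also lost in both was chr7:118919001-118947000, between ANKRD7 and KCND2, a potassium channel gene, which had 0 kb in every treated library, 27, 22 and 22 kb in DMSO libraries and 22, 25, 27 and 25 kb in siNC libraries. A pair of regions between GRIK2, a kainate receptor gene, and HACE1, a ubiquitin ligase gene, parted in their response. The region chr6:103397001-103430000 had 0 kb in every treated library, against 23, 24 and 24 kb in DMSO libraries and 31, 28, 33 and 33 kb in siNC libraries. Its neighbour chr6:103327001-103362000 had 0 kb in each A-196 library and 28, 28 and 27 kb in DMSO libraries, but 9, 10, 11 and 18 kb in siSUV420H1 libraries and 34, 31, 32 and 30 kb in siNC libraries. The region chr2:194724001-194755000 holds the lncRNA genes LINC01790 and LOC105376755, and it had 0 kb in every treated library, 13, 13 and 12 kb in DMSO libraries and 24, 30, 29 and 24 kb in siNC libraries. The other 4 regions named for loss in both arms lay next to PABPC4L, MAN1A1, ANKRD7 and JAG1 and had 0 kb in every treated library, with DMSO means 12.3 to 21 kb and siNC means 20.5 to 38.5 kb.

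Other regions met the call of a loss in 1 arm only, though several of them were also shorter in the other. One with A-196 was chr2:129107001-129142000, between HS6ST1 and RAB6C, with 0 kb in each A-196 library. Each DMSO library had 35 kb there, the full width of the region. In the other arm it had 0, 6, 0 and 5 kb in siSUV420H1 libraries and 31, 30, 30 and 32 kb in siNC libraries. On chromosome 21, chr21:27670001-27704000, which holds LINC01673, had 0 kb in each A-196 library, against 33, 30 and 33 kb in DMSO libraries. The same region had 31 kb in each siSUV420H1 library, against 26, 29, 28 and 28 kb in siNC libraries, so it was lost in 1 arm and higher in the other. With siSUV420H1 the region with the longest lost length was chr3:147912001-147961000, between ZIC1, a zinc finger developmental regulator, and AGTR1, an angiotensin receptor gene; it holds the LOC124909496 window printed above. It had 0 kb in each siSUV420H1 library, against 45, 49, 45 and 47 kb in siNC libraries, and 0, 5 and 7 kb in A-196 libraries, against 26, 22 and 23 kb in DMSO libraries. The region chr16:80084001-80119000 between MAF, a bZIP transcription factor gene, and DYNLRB2 holds the LOC105371358 window; it had 0 kb in each siSUV420H1 library, 31, 32, 32 and 32 kb in siNC libraries, 5, 0 and 0 kb in A-196 libraries and 17, 20 and 19 kb in DMSO libraries. In the desert between NUDT12 and EFNA5, chr5:105302001-105337000 had 0 kb in all siSUV420H1 libraries, against 27, 31, 31 and 20 kb in siNC libraries, and 0 kb in all A-196 and DMSO libraries.

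The median width of gained regions was 12.5 kb with A-196 and 12 kb with siSUV420H1, and that of lost regions 14 kb and 11 kb. With A-196 the 8 gains of the longest covered length had 5 to 14 kb in A-196 libraries and 0 kb in DMSO libraries, among them chr5:25973001-25986000 between CDH10 and CDH9, with 10, 10 and 7 kb, and chr13:89778001-89801000 between SLITRK5 and GPC5, with 14, 9 and 9 kb. The second of these had 0 kb in each siSUV420H1 library and 9 kb in each siNC library, so it was lost in the siRNA arm. With siSUV420H1 chr8:83777001-83824000 between SNX16 and RALYL had 19, 36, 13 and 25 kb in siSUV420H1 libraries and 0 kb in siNC libraries. In the same arm chr13:88199001-88245000 between SLITRK5 and GPC5, with LINC00373, had 6, 43, 15 and 36 kb in siSUV420H1 libraries and 0 kb in siNC libraries, with libraries 2 and 4 the highest. The region around the LOC105370307 window, chr13:88993001-89050000, was higher in both arms, with 11, 10 and 14 kb in A-196 libraries, against 5, 0 and 0 kb in DMSO libraries, and 21, 25, 21 and 39 kb in siSUV420H1 libraries, against 0, 0, 8 and 0 kb in siNC libraries. The largest higher value in the siRNA arm was that of chr8:136870001-136981000 between KHDRBS3 and FAM135B, with LINC02055: 65, 84, 68 and 77 kb in siSUV420H1 libraries, against 27, 30, 38 and 15 kb in siNC libraries. The region of the hsa-miR-4477b locus, chr9:63782001-63857000, had 37, 34 and 34 kb in A-196 libraries, against 15, 9 and 22 kb in DMSO libraries; it holds the pseudogenes DUX4L50 and FRG1JP of multicopy families, so reads of near-identical copies may be mixed there.

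Regions marked in all 14 libraries were wide, with a median of 36 kb. Width and recurrence are linked by how regions were made, however. Merging peaks of more libraries widens a region, and a wide region is easier to overlap. The 201 regions marked in all 14 libraries were 4.15% of the desert regions, against 6.08% of the other regions, and 2025 or 41.8% were marked in 1 library only, against 41.3% of the other regions. The region of the LINC02015 window, chr3:177793001-177876000 between TBL1XR1 and KCNMB2, had 43, 57 and 68 kb in A-196 libraries. Each DMSO library had 83 kb there, the full width of the region. The lengths were 61, 58, 51 and 61 kb in siSUV420H1 libraries, against 65, 63, 64 and 64 kb in siNC libraries. Some 700 kb from any coding gene, in the desert of the skeletal and sex-determination regulator SOX9, chr17:71395001-71448000 had 36, 38 and 50 kb in A-196 libraries, against 53 kb in each DMSO library. The region is 53 kb wide, so no library can exceed this value. This region had 50, 49, 49 and 50 kb in siSUV420H1 libraries, against 53, 51, 52 and 51 kb in siNC libraries, so the groups separated by little. The domain chr13:70747001-70848000 between KLHL1 and DACH1, a transcriptional repressor gene, had 45, 41 and 47 kb in A-196 libraries, against 84, 84 and 78 kb in DMSO libraries, and 28, 33, 33 and 24 kb in siSUV420H1 libraries, against 86, 90, 92 and 90 kb in siNC libraries. The following shares are not given for other regions marked in all 14 libraries, so they cannot be read as particular to deserts. Of the 201 regions the covered length was lower in every treated than in every control library in 145 or 72.1% with A-196. With siSUV420H1 it was lower in 137 or 68.2%. It was higher in 2 with A-196 and 4 with siSUV420H1. One of the higher ones, chr7:9740001-9798000, had 53, 49, 39 and 41 kb in siSUV420H1 libraries, against 14, 19, 22 and 18 kb in siNC libraries. The region chr8:127022001-127116000 between LRATD2 and POU5F1B, with the lncRNA genes PCAT2 and PRNCR1, had 56, 28 and 53 kb in A-196 libraries, against 93, 92 and 93 kb in DMSO libraries, and 45, 47, 38 and 37 kb in siSUV420H1 libraries, against 52, 58, 62 and 57 kb in siNC libraries.

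Among regions marked in 4 or more libraries the farthest was chr4:33833001-33849000, between PCDH7 and ARAP2 and 2164 kb from the nearer of them, with 10, 15, 5 and 10 kb in siSUV420H1 libraries, against 8, 7, 9 and 0 kb in siNC libraries. It had 0 kb in every A-196 and DMSO library. The region chr4:59091001-59104000, 1987 kb from a coding gene, had 0 kb in every A-196 and siSUV420H1 library, against 8, 9 and 9 kb in DMSO libraries and 11, 13, 13 and 12 kb in siNC libraries. In contrast chr18:39796001-39808000, 2027 kb from a coding gene, had 11, 12, 11 and 10 kb in siSUV420H1 libraries and 10 kb in each siNC library, and 0 kb in every library of the inhibitor arm.

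Whole deserts were compared next, as the summed covered length of their regions. In each A-196 library it was below each DMSO library in 131 of 364 deserts, 36% beside 32.9% over all stretches between neighbouring coding genes, and higher in 53, 14.6% beside 4.93%. With siSUV420H1 193 of 325 deserts were lower in every treated library, 59.4% beside 57.9%, and 29 were higher, 8.92% beside 3.97%. Without libraries 2 and 4 of siSUV420H1, 203 of 312 were lower and 39 higher. Fewer treated libraries make both calls easier to meet, and the share over all stretches is not given for that setting. Deserts lower in both arms numbered 119, which is 90.8% of those lower with A-196 and 61.7% of those lower with siSUV420H1, beside 77.8% and 51.3% over all stretches. Another 16 were higher in both, 30.2% and 55.2% beside 16.8% and 24.2%. Long stretches hold more peaks of any library than short ones, and what part this has in the share of higher deserts was not tested.

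The 10 deserts with the longest covered length in the 7 control libraries held 21.9% of the control covered length. The longest lies between RFPL4B and MARCKS, the gene of an actin-binding substrate of protein kinase C, on chromosome 6. It held 321, 264 and 487 kb in A-196 libraries, against 693, 692 and 680 kb in DMSO libraries. It held 294, 284, 262 and 272 kb in siSUV420H1 libraries, against 471, 492, 505 and 466 kb in siNC libraries, so no groups overlapped. In the desert between JAG1, a Notch ligand gene, and BTBD3 the lengths were 251, 243 and 355 kb in A-196 libraries, against 474, 463 and 467 kb in DMSO libraries. They were 305, 312, 310 and 307 kb in siSUV420H1 libraries, against 467, 463, 459 and 454 kb in siNC libraries. The desert between IGFBP3, an insulin-like growth factor binding protein gene, and TNS3 had the greatest difference with A-196, 148, 102 and 227 kb in A-196 libraries, against 530, 518 and 504 kb in DMSO libraries. The desert between MYC, the proto-oncogene, and GSDMC held 198 ± 50 kb with A-196 and 401 ± 3 kb with DMSO (SD, n = 3 each), and 238 ± 8.46 kb with siSUV420H1 and 393 ± 11.9 kb with siNC (SD, n = 4 each).

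In the siRNA arm the largest difference among these deserts was between PABPC4L and PCDH18. Covered length there was 46, 28 and 42 kb in A-196 libraries, against 278, 301 and 226 kb in DMSO libraries. It was 57, 66, 50 and 61 kb in siSUV420H1 libraries, against 419, 462, 534 and 485 kb in siNC libraries. Of its 60 regions 10 of the 17 that all DMSO libraries marked were lost with A-196, and 24 of the 32 that all siNC libraries marked with siSUV420H1. The desert between NUDT12 and EFNA5, an ephrin ligand gene, held 16, 5 and 5 kb in A-196 libraries, against 102, 122 and 100 kb in DMSO libraries, and 241, 281, 271 and 287 kb in siSUV420H1 libraries, against 575, 608, 717 and 618 kb in siNC libraries. The control groups themselves differed here, with 630 ± 61.2 kb in siNC (SD, n = 4) and 108 ± 12.2 kb in DMSO (SD, n = 3), as they did in regions marked over all deserts, 1810 ± 146 in siNC and 1112 ± 67.6 in DMSO; the arms were called against different IgG libraries and the siRNA and vehicle controls were not tested against each other. The desert between CDH2, the N-cadherin gene, and DSC3, a desmosomal cadherin gene, held 40, 29 and 140 kb in A-196 libraries, against 378, 392 and 318 kb in DMSO libraries. Between ZEB2, a transcriptional repressor of epithelial genes, and ACVR2A, an activin receptor gene, the lengths were 105, 81, 84 and 100 kb in siSUV420H1 libraries, against 326, 353, 397 and 369 kb in siNC libraries.

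Other deserts held more peaks in the treated libraries. Between CDH10 and CDH9, both cadherin genes, it was 108, 142 and 165 kb in A-196 libraries, against 6, 5 and 0 kb in DMSO libraries. It was 64, 286, 52 and 220 kb in siSUV420H1 libraries, against 0, 11, 30 and 5 kb in siNC libraries, again with libraries 2 and 4 highest. These bases were scattered: 51 of the 87 regions were marked in a single library, and 12 kb were covered in every A-196 library and 8 kb in every siSUV420H1 library. Between SPDYE21 and AUTS2 the lengths were 46, 151 and 100 kb in A-196 libraries and 49, 32, 11 and 20 kb in siSUV420H1 libraries, against 0 kb in every DMSO and siNC library, with 3 kb common to all A-196 libraries and 0 kb to all siSUV420H1 libraries. The desert between KHDRBS3, an RNA-binding protein gene, and FAM135B differed from these in the siRNA arm. It held 395, 637, 344 and 536 kb in siSUV420H1 libraries, against 190, 214, 229 and 70 kb in siNC libraries, with 99 kb common to every siSUV420H1 library and 31 kb to every siNC library. It held 56, 129 and 77 kb in A-196 libraries, against 0 kb in each DMSO library, with 7 kb common to the A-196 libraries. Similarly the desert between NXPH1, a neurexin ligand gene, and COXFA4 held 266, 498, 187 and 474 kb in siSUV420H1 libraries, against 82, 125, 172 and 69 kb in siNC libraries, with 78 kb common to every siSUV420H1 library and 24 kb to every siNC library.

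**Figure D5:**
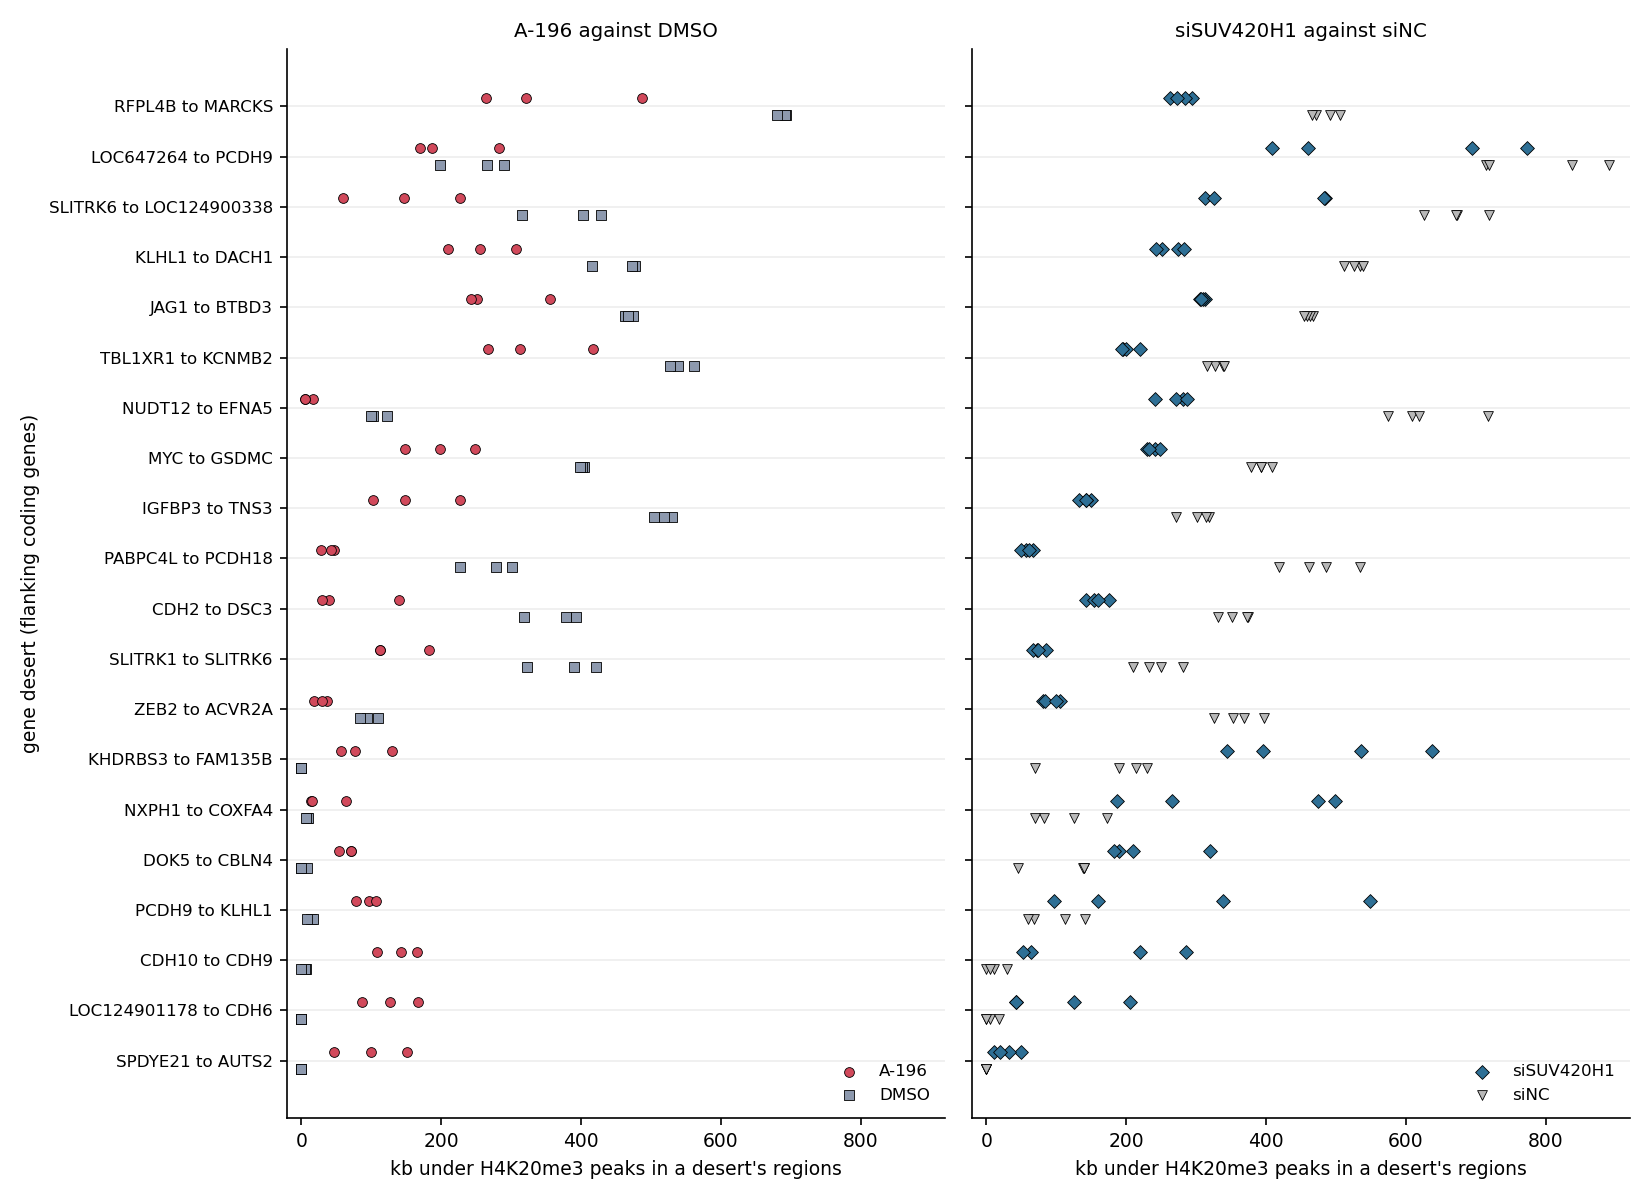
Covered length in kb of the regions in 20 gene deserts, each a row named by its flanking coding genes, 1 point per library, for A-196 above DMSO (left panel) and siSUV420H1 above siNC (right panel). The rows from RFPL4B to ZEB2 hold less in treated libraries, with overlap in the LOC647264 to PCDH9 row, and the rows from KHDRBS3 to SPDYE21 hold more; the groups overlap in the siRNA arm of PCDH9 to KLHL1, and in that row, CDH10 to CDH9 and LOC124901178 to CDH6 the siSUV420H1 libraries split into a low and a high pair.

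The lost shares beside developmental regulators were close to those over all deserts. Of 129 genes on a list of such regulators 40 bounded a desert, and of the 108 regions there that all DMSO libraries marked 25% were lost with A-196, beside 27.4% over all deserts. With siSUV420H1 35.4% of 164 were lost, beside 35.8%. Between KCNJ2 and SOX9 5 of 15 were lost with A-196. Between KLF4, a regulator of epithelial differentiation, and ACTL7B 6 of 12 were lost with siSUV420H1, and the covered length was 88.2 ± 8.85 kb with siSUV420H1 and 201 ± 7.18 kb with siNC (SD, n = 4 each).

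Of 103 neuronal adhesion and synaptic genes 67 bounded 81 deserts, which held 1673 of the 4846 regions. Losses there took 28.1% of 192 regions with A-196 and 34.7% of 349 with siSUV420H1, beside 27.4% and 35.8% over all deserts. Gained regions were present in 8.64% of these deserts with A-196 and 12.3% with siSUV420H1, beside 4.94% and 8.31% of all 385 deserts. The deserts of this list held more regions each than all deserts did on average. A desert with more regions can more easily hold a gained one, and what part this has was not tested. Deserts of this list next to PCDH18, CDH2 and EFNA5 are described above, and between GRIK2 and HACE1 10 of 17 regions were lost with siSUV420H1. The desert between SLITRK5, a neuronal transmembrane protein gene, and GPC5, a heparan sulphate proteoglycan gene, had the most gained regions, 6 with A-196 and 6 with siSUV420H1 of 103. Its covered length was 375 ± 115 kb with A-196 and 309 ± 31.9 kb with DMSO (SD, n = 3 each), and 326, 851, 295 and 661 kb in siSUV420H1 libraries, against 186, 189, 302 and 123 kb in siNC libraries. The groups of the siRNA arm overlapped, and the mean was 533 kb with siSUV420H1, 310 kb without libraries 2 and 4, and 200 kb with siNC.

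By chromosome, every A-196 library lay below every DMSO library in 16 of 20 chromosomes and every siSUV420H1 library below every siNC library in 15 of 20. With all libraries used, on none did all treated libraries lie above. These counts are not given for the other regions, so they cannot be read as particular to deserts. On chromosome 16 the mean was higher with A-196, 166 ± 63.6 kb against 138 ± 7.23 kb with DMSO (SD, n = 3 each). On chromosome 22 it was higher with siSUV420H1, 74.5 ± 8.5 kb against 65.8 ± 6.13 kb with siNC (SD, n = 4 each). The groups overlapped in both cases. Chromosome 4, with 439 regions, had 412 ± 100 kb with A-196 and 1154 ± 137 kb with DMSO (SD, n = 3 each), 64.3% lower. It had 948 ± 107 kb with siSUV420H1 and 2314 ± 202 kb with siNC (SD, n = 4 each), 59.1% lower. Chromosome 1 was 69.1% lower with siSUV420H1, with 391 ± 7.8 kb in siSUV420H1 and 1266 ± 62.8 kb in siNC libraries (SD, n = 4 each). On chromosome 21 the siSUV420H1 libraries had 551, 1484, 374 and 1194 kb, against 265, 345, 577 and 275 kb in siNC libraries, and the groups overlapped. The mean was 901 kb with siSUV420H1, 462 kb without libraries 2 and 4, and 366 kb with siNC. Without libraries 2 and 4 the siSUV420H1 values lay below every siNC library on chromosome 13, with 2067 and 1819 kb, against 3086 to 3834 kb in siNC libraries. On chromosome 22 the same 2 libraries lay above every siNC library, with 83 and 78 kb, against 60 to 72 kb.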

How the data were processed

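H4K20me3 peaks of 14 libraries were analysed; 10 other samples of the series were not analysed here. Per the file headers and names, each deposited list holds the broad peaks of 1 library as intervals in base pairs, called against 1 IgG library in each arm, with no score or count, so the depth of a library is unknown and no interval that needs it is given. Per the submitters' processing notes, the authors used hg38, cutadapt 4.4, Bowtie, Picard 2.27.3 and bedtools 2.30.0; the peak caller is not given in the sources used here. Peak ends lay on a 1000 bp grid, with a narrowest peak of 5 kb and a smallest gap of 2 kb, so smaller changes are not visible. Where no peak was called, signal under the calling limit may be present.

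From these lists, Python 3.11.15 (numpy 2.4.6, pandas 2.3.3) merged desert peaks into regions and measured covered length in each library. Gene spans and printed sequences are RefSeq's on GRCh38.p14, restricted to 19866 coding genes on primary sequences; deserts rest on this table being complete. Centromere bounds were rounded hg38 cytoband positions entered by hand from general knowledge and not checked against a file; with a centromere distance of 10 Mb in place of 5 Mb, no library measure or count of lost, gained or kept regions changed direction or crossed its threshold. No genome sequence was used, so repeats, mappability and copy number were not analysed here. The tests were exact two-sided permutations of libraries between the 2 groups of an arm, on 4 measures with Benjamini-Hochberg adjustment and a threshold of 0.05; code was tested on simulated peak lists. The regions, gene lists and comparisons were chosen with earlier results of these data known. Named regions are the 8 longest lost and 8 longest gained per arm, the 5 largest other differences in each direction among those whose groups do not overlap, the 8 longest marked in all 14 libraries, the 8 longest lost in both arms and, of those marked in 4 or more libraries, the 5 farthest from a gene; named deserts are the 10 longest in controls and, per arm, the 5 largest differences each way among those whose groups do not overlap. The text gives the values of part of them.

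Same-numbered libraries of an arm did not deviate together over the regions (r between -0.056 and 0.018), so the numbers were not used to pair libraries. Some individual deserts are not reported here.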

Additional observations from a re-analysis of the deposited data

Results flagged for a closer look

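On chromosomes outside the rule, peaks far from coding genes covered more in the treated libraries on average. On chromosome 14 they covered 862 ± 334 kb with A-196 and 119 ± 14.6 kb with DMSO (SD, n = 3 each), a difference in every library, and 5744 ± 918 kb with siSUV420H1 and 4117 ± 777 kb with siNC (SD, n = 4 each), where the groups overlapped. On chromosome X they covered 699 ± 160 kb with A-196 and 516 ± 13.6 kb with DMSO (SD, n = 3 each), and 1486 ± 437 kb with siSUV420H1 and 533 ± 57.3 kb with siNC (SD, n = 4 each). Every treated library lay above every control library in all of these but chromosome 14 of the siRNA arm. On most chromosomes of the rule the direction was the opposite. The peaks on chromosomes 14 and X were taken without the rule's limit on distance from a centromere, so peaks near centromeres may be included. The contrast in direction is therefore between sets chosen differently, and what part this has was not tested. The number of copies of these chromosomes in the cells was not analysed here.

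The covered length of 8 of the 385 deserts moved in opposite directions in the arms, with every treated library on 1 side of every control library in each. These differences were not tested, and 7 of the deserts are given here. The same count over all stretches between coding genes is not given, so whether 8 is many cannot be told. Between KCNV1 and CSMD3 the mean difference was 41 kb for A-196 minus DMSO and -158 kb for siSUV420H1 minus siNC, between SPRY2 and SLITRK1 22 and -140 kb, and between CSMD3 and TRPS1 27 and -91.5 kb in the same order. Smaller differences were 23 and -23.5 kb between TRIB1 and LRATD2, 8 and -9.5 kb between TNP1 and TNS1, and 6.67 and -7 kb between CDH18 and CDH12. Between GATA3 and CELF2 the A-196 difference was -32.3 kb and the siSUV420H1 difference 6.75 kb.

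Within groups of 4 libraries 15 of 145 values tested held a library far from the other 3. The limit used passes about 1 in 20 by chance for continuous, normally spread values. Lengths here lie on a 1000 bp grid, and many values are of regions and deserts named for their length or difference. That rate therefore does not apply, and no excess over chance can be read from the count. Many are regions in which the other libraries agree to 1 or 2 kb or have no peak. In the siSUV420H1 group these were 10 kb in replicate 1 at chr2:58610001-58642000, 7 kb in replicate 2 at chr3:82080001-82116000, 5 kb in replicate 2 at chr5:25973001-25986000, 17 kb in replicate 3 at chr13:59073001-59090000, 5 kb in replicate 4 at chr13:70413001-70478000, 5 kb in replicate 1 at chr13:90096001-90109000 and 11 kb in replicate 2 at chr18:78487001-78508000. In the siNC group they were 9 kb in replicate 2 at chr3:178012001-178098000, 64 kb in replicate 4 at chr3:191748001-191819000, 26 kb in replicate 2 at chr7:119390001-119416000, 8 kb in replicate 3 at chr13:88993001-89050000, 65 kb in replicate 3 at chr13:106124001-106191000, 31 kb in replicate 1 at chr16:80084001-80119000 and 56 kb in replicate 4 at chr20:11427001-11484000. The desert between DOK5 and CBLN4 had 45 kb in siNC replicate 4, against 139, 138 and 140 kb in siNC replicates 1 to 3.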

How the results depend on the processing

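In all settings tried, the covered length of the deserts was lower in A-196 than in DMSO libraries and in siSUV420H1 than in siNC libraries; leaving out 1 library gave -0.94 to -0.67 and -0.76 to -0.55 on the log2 scale. The A-196 minus DMSO difference in regions marked was 26 with a distance of 500 kb, 63.7 with peaks of every width, 144 with peaks within 10 kb merged and 2 for medians, and -110 to 95.5 without 1 library; it was -336 for regions marked in 2 or more libraries, -199 with an equal number of widest peaks, -180 with at least 50% of a region covered and -63 at 200 kb. The ratio to other regions for A-196 was 0.07 at 500 kb, 0.00 for regions marked in 2 or more libraries and -0.10 to 0.03 without 1 library.

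At 200 kb 410 regions were kept with A-196; at 500 kb 143 were lost, 21 gained and 131 kept with A-196, and 267 lost and 327 kept with siSUV420H1. Requiring at least 50% of a region to be covered left 19 gained and 84 kept with A-196 and 359 kept with siSUV420H1. Merging peaks within 10 kb gave 121 lost and 51 gained with A-196, and a difference between the arms of -0.75 in log2 regions marked (exact permutation test, adjusted p = 0.0129). With an equal number of widest peaks the siSUV420H1 minus siNC difference was 30.5 regions, with 255 lost and 100 gained, and the difference between the arms was 0.33. Without 1 library 33 to 108 regions were gained with A-196 and 47 to 83 with siSUV420H1, and the difference between the arms in log2 regions marked was -0.58 to -0.30.

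Where genes of every type bounded a desert, only 73 regions remained: A-196 lost 2, gained 0 and kept 2, and siSUV420H1 lost 12, gained 0 and kept 7. There the siSUV420H1 differences were -13.5 regions, -1.27 in log2 covered length, -1.5 kb in width and -0.45 in the ratio to other regions (exact permutation test, adjusted p = 0.0286 for all 4), the A-196 ratio was 0.20, and the arms differed by -0.70 in covered length and -0.65 in the ratio (adjusted p = 0.00429 for the ratio). The cause of these changes was not tested. Leaving out siSUV420H1 libraries 2 and 4 together, chosen after seeing the data as was leaving out chromosomes 13 and 21, gave -0.06 in the ratio and differences between the arms of -0.08 and -0.02.

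With the replicate number as a block, sign flips within pairs gave the same differences, -14 and -478 regions and -0.81 and -0.66 in log2 covered length, with p no lower than 0.125 for siSUV420H1, the smallest that 4 pairs allow. Peak lists carry no depth, so a change of depth or enrichment between libraries cannot be told apart from a change of the mark.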
